A study of Mus musculus with 10 samples.

Results

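The cornified envelope genes examined here were Ivl, Lor, Flg, Tgm1, Tgm3, Evpl, Ppl, Cnfn, Sbsn and Krtdap, listed by name and looked up on the arrays through the accession of each probe. A probe was paired with 9 of these 10 genes, out of 19096 genes with a paired probe in all. Flg, which encodes the filaggrin precursor, had no paired probe and its level is not analysed here. For each gene the brightest probe, by its mean over the 10 arrays, was used, and Evpl, Sbsn and Krtdap each had a second, dimmer probe. RNA from 5 whole lungs of Lkb1f/f mice, which carry the floxed Lkb1 allele without a Cre and served as wild type (WT), was compared with RNA from 5 whole lung tumours, squamous cell carcinomas (SCC), of CCSPiCreLkb1f/f mice. All mice were labelled as strain B6.129, and were 13 months old and untreated. Lkb1, also named Stk11, encodes a tumour suppressor kinase. Both groups carry the floxed allele, and only the SCC group carries iCre, which the CCSP promoter drives in airway epithelium. Each sample was hybridised to 1 single-colour array. The labels do not say that each replicate came from a separate animal, so the p-values measure the spread between these samples. In whole tissue, fewer cells of a type and less RNA per cell cannot be told apart.

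The cornified envelope is the protein shell that replaces the plasma membrane of a terminally differentiated squamous keratinocyte. Envoplakin (Evpl) and periplakin (Ppl) form its first scaffold beneath the membrane, involucrin (Ivl) is laid down on it, and loricrin (Lor) later makes up much of its mass. Transglutaminases, above all Tgm1 and Tgm3, join these proteins through bonds between glutamine and lysine side chains. Normal alveoli and airways build no such envelope, whereas keratinising squamous carcinomas of the lung can.

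The promoters of 7 of the 9 measured genes are shown by 4 examples, 3 whose windows hold both motifs discussed here and Sbsn, whose window holds the first only. The sequences are the 250 bases before the start of each gene, from RefSeq on GRCm38.p6, 5′ to 3′ on the strand of the gene. Capitals mark matches to TGANTCA, the AP-1 core bound by Fos and Jun proteins, and to TATAAA, the TATA box. The windows lie at chr3:92573736-92573985 on the minus strand, chr3:92083143-92083392 on the minus strand, chr7:30787655-30787904 on the plus strand and chr7:30751221-30751470 on the plus strand.
Ivl: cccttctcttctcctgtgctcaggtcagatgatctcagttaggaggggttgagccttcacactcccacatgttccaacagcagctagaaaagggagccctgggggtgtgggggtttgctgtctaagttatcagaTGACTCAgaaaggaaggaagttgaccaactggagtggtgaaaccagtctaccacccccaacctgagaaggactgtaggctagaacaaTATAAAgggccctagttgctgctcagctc
Lor: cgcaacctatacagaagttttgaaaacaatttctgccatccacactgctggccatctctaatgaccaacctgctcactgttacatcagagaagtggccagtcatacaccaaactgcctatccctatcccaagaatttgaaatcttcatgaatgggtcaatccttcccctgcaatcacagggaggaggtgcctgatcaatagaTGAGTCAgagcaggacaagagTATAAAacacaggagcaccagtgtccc
Krtdap: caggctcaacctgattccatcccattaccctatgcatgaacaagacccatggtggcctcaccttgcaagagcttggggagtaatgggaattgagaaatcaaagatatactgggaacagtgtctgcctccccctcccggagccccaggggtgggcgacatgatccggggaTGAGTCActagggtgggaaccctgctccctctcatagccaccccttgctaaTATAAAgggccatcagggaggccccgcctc
Sbsn: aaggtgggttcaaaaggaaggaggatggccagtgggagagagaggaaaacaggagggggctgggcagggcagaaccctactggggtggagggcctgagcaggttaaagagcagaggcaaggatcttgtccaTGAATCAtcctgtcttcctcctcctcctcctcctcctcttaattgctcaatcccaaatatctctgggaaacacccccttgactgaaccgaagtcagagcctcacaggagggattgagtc

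The promoter table held 8 windows for these 7 genes, Tgm1 having a pair of them, and none for Evpl and Ppl. The AP-1 core was searched on both strands and occurred in 4 of the 8 windows, those printed, against 6.75% of all 32851 promoter windows of that length. It began 116 bases before the start of Ivl, 48 before Lor, 81 before Krtdap and 119 before Sbsn. TATAAA was searched on the gene's strand and occurred in 4 of the 8 windows, those of Ivl, Lor, Krtdap and Tgm3, against 7.59% of all windows. It began 29 bases before the start of Ivl, 27 before Lor, 30 before Krtdap and 28 before Tgm3. The Grainyhead motif AACNGGTT and the half-site of the p53 family, which p63 also binds, were searched on both strands and matched in 0 of the 8 windows, against 1.79% and 7.13% of all windows. The AP-1 and TATA matches overlapped in none of the windows printed. A match is a description of letters and not a measured site.

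Well above background were 71.0% to 74.4% of probes on 9 arrays and 90.2% on SCC replicate 5. SCC replicate 2 also stood apart: across tested probes it correlated with the WT arrays at r = 0.940 to 0.946, against 0.850 to 0.905 for the other 4 SCC arrays. With those 4 it correlated at r = 0.906 to 0.948, and they correlated with each other at 0.945 to 0.990. Probes are not independent replicates. The arrays lay on 3 slides, with WT replicates 1 to 4 on the first, WT replicate 5 and SCC replicates 1 to 3 on the second, and SCC replicates 4 and 5 on the third, each slide scanned in one run. Values are log2 of the background-subtracted, quantile-normalised signal. Differences are SCC minus WT, with standard errors (SE) and Benjamini-Hochberg adjusted p-values from limma over 30374 tested probes. A call needs an adjusted p below 0.05 and a 2-fold difference. No Lkb1 (Stk11) probe was paired, so the deletion itself was not checked.

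Of the 9 genes, 8 were called higher in SCC and 0 lower (0 also at an unadjusted p below 0.05, limma), against 11.6% called higher among the 15586 tested genes. Ivl, Tgm3 and Krtdap were well above background on fewer than 4 WT arrays and were tested because of the SCC arrays alone. For them the 0 lower says little. When a probe had to be well above background on all arrays, 5 genes were called. The median difference of the 9 genes was 3.47, whereas that of all tested genes was -0.04. Krtdap, Cnfn, Tgm1 and Lor differed most, and Sbsn was the gene not called. Every SCC array lay above every WT array for 5 of the 9, namely Ivl, Lor, Tgm1, Evpl and Krtdap, against 18.9% of all tested genes. For each of the 9 genes the lowest SCC array was replicate 2. The other 4 SCC arrays lay above all 5 WT arrays for all 9 genes, as the plot of signal on each array shows.

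**Figure D1:**
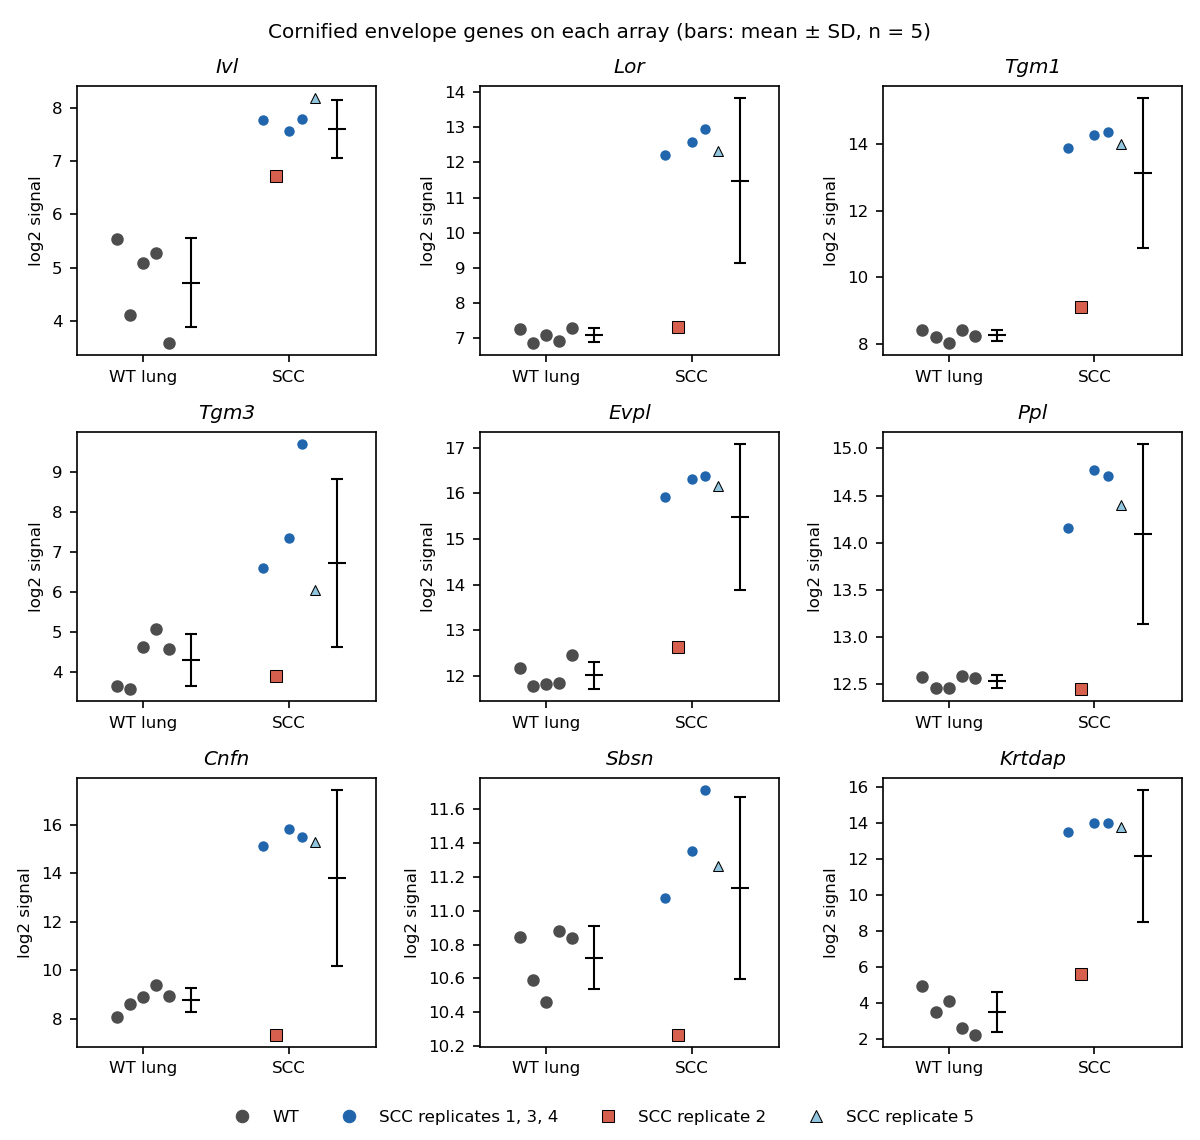
Log2 signal of the 9 cornified envelope genes with a probe on each of the 5 WT lung and 5 SCC arrays (points), with the mean ± SD of each group beside them; each panel has its own axis. SCC replicate 2 is the lowest SCC array in every panel and lies below all WT arrays for Ppl, Cnfn and Sbsn, while the other 4 SCC arrays lie above all WT arrays in every panel.

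Involucrin is an early precursor of the envelope. Its probe (Ivl) read 5.53, 4.11, 5.09, 5.28 and 3.59 on WT replicates 1 to 5 and 7.77, 6.72, 7.55, 7.78 and 8.17 on SCC replicates 1 to 5. The groups did not overlap, and the probe was well above background on 3 of the 5 WT arrays and on all 5 SCC arrays. Ivl was higher in SCC by 2.88 ± 0.41 (SE, n = 5 and 5, adjusted p = 0.000343, limma), with an exact two-sided permutation p of 0.00794, the smallest that the 252 splits of 5 against 5 allow. SCC replicate 2 was 1.10 below the mean of the other SCC arrays. Without that array the difference was 3.10 (adjusted p = 0.000175), and without SCC replicate 5 it was 2.73 (adjusted p = 0.000716). With the normexp background correction it was 1.20 (adjusted p = 8.35e-05).

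Loricrin, a glycine-rich late precursor, read 7.25, 6.85, 7.08, 6.89 and 7.26 on the WT arrays and 12.23, 7.31, 12.59, 12.97 and 12.33 on the SCC arrays. On SCC replicate 2 Lor lay just above the highest WT array, far from the other 4 SCC arrays. Lor was higher by 4.42 ± 0.96 (SE, adjusted p = 0.00397, exact permutation p = 0.00794). Without SCC replicate 2 it was higher by 5.46 ± 0.17 (adjusted p = 5.48e-08), and with normexp by 3.54 (adjusted p = 0.00269).

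Tgm1 encodes the membrane-anchored transglutaminase of keratinocytes, which starts envelope cross-linking at the plasma membrane. It read 8.39, 8.21, 8.02, 8.41 and 8.23 on the WT arrays and 13.87, 9.10, 14.27, 14.36 and 14.01 on the SCC arrays. All SCC arrays lay above all WT arrays, 4 of them far above and replicate 2 close to the WT level. Tgm1 was higher by 4.87 ± 0.92 (SE, adjusted p = 0.00182, exact permutation p = 0.00794), and by 5.88 ± 0.13 without SCC replicate 2 (adjusted p = 8.38e-09). In fold terms this was 29.3-fold with all arrays and 58.8-fold without that one.

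Tgm3 encodes the soluble epidermal transglutaminase, which must be cut by a protease to become active. It read 3.66, 3.58, 4.62, 5.07 and 4.57 on the WT arrays and 6.60, 3.91, 7.34, 9.69 and 6.05 on the SCC arrays. The probe was well above background on 2 WT arrays and 4 SCC arrays. SCC replicate 2 fell within the WT range, and SCC replicate 4 was the highest array. Tgm3 was higher by 2.42 ± 0.89 (SE, adjusted p = 0.0458, exact permutation p = 0.0317). The call was lost when any 1 of the 5 WT arrays or of SCC replicates 1, 3 and 4 was left out, and without SCC replicate 2 the difference was 3.12 (adjusted p = 0.00454). With normexp it was 1.06 (adjusted p = 0.0603).

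Among 7 other transglutaminase genes, 5 were tested, of which 1 was called higher and 2 lower, against 13.4% of all tested genes called lower. Tgm5, another epidermal transglutaminase, was 2.47 ± 0.59 higher (adjusted p = 0.00687), with 3.91 to 4.69 on the WT arrays, 7.18 to 7.70 on 4 SCC arrays and 4.30 on SCC replicate 2. F13a1, the A chain of coagulation factor XIII, which macrophages also make, was lower by 1.85 ± 0.37 (adjusted p = 0.00271). Neither was called with slide as a block (adjusted p = 0.336 for Tgm5 and 0.176 for F13a1), and without SCC replicate 2 in that fit Tgm5 was (adjusted p = 0.00115) and F13a1 was not (adjusted p = 0.113). Epb42, an erythrocyte membrane protein related to transglutaminases but without their activity, was called lower (adjusted p = 0.000641), but its probe was well above background on 1 SCC array, and with scaling to the 75th percentile its adjusted p was 0.127. Epb42 was not called with slide as a block (adjusted p = 0.0673, limma), nor without SCC replicate 2 in that fit (adjusted p = 0.0657). The tissue transglutaminase Tgm2 differed by 0.03 (adjusted p = 0.875), and Tgm4, the prostate enzyme, by -0.82 (adjusted p = 0.0187), which is under 2-fold. Tgm6 was too dim to test. Tgm5, Epb42, Tgm2 and Tgm4 are named after their values were seen, to account for the list.

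Envoplakin and periplakin are plakins that pair with each other and link the envelope to desmosomes and keratin. Evpl read 12.16, 11.77, 11.81, 11.85 and 12.46 on the WT arrays and 15.92, 12.64, 16.31, 16.39 and 16.16 on the SCC arrays. The groups did not overlap, although SCC replicate 2 was close to WT replicate 5. Evpl was higher by 3.47 ± 0.66 (SE, adjusted p = 0.00195, exact permutation p = 0.00794), and by 4.18 ± 0.17 without SCC replicate 2 (adjusted p = 2.06e-07). Its dimmer probe gave 3.77 (adjusted p = 0.00241).

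Ppl read 12.58, 12.46, 12.45, 12.59 and 12.57 on the WT arrays and 14.15, 12.45, 14.77, 14.70 and 14.40 on the SCC arrays. The WT arrays were close together (SD 0.066), and SCC replicate 2 was at their lower edge. Ppl was higher by 1.57 ± 0.39 (SE, adjusted p = 0.00836, exact permutation p = 0.0476), which is 2.96-fold, and without SCC replicate 2 it was higher by 1.98 ± 0.13 (adjusted p = 2.84e-06). Both plakins of the pair were called, Evpl with the larger fitted difference, and the difference between their changes was not tested.

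Cornifelin (Cnfn) is a small cysteine-rich envelope component. It read 8.07, 8.63, 8.92, 9.40 and 8.95 on the WT arrays and 15.11, 7.35, 15.85, 15.49 and 15.30 on the SCC arrays. SCC replicate 2 was below all 5 WT arrays, and the other 4 SCC arrays were far above them. Cnfn was higher by 5.03 ± 1.48 (SE, adjusted p = 0.0183, exact permutation p = 0.0476). Without SCC replicate 2 it was higher by 6.65 ± 0.26 (adjusted p = 2.01e-07), a 100.3-fold difference in place of 32.7-fold.

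Krtdap and Sbsn encode small secreted proteins of differentiating keratinocytes, and their promoter windows above lie near each other on chromosome 7. Krtdap read 4.93, 3.52, 4.11, 2.61 and 2.24 on the WT arrays and 13.47, 5.61, 13.98, 13.96 and 13.77 on the SCC arrays. The WT arrays were near background, with the probe well above it on 1 of 5, and the groups did not overlap. Krtdap was higher by 8.67 ± 1.55 (SE, adjusted p = 0.00136, exact permutation p = 0.00794), and by 10.31 ± 0.51 without SCC replicate 2 (adjusted p = 6.61e-07). With the WT level measured on 1 array, the size depends on the background correction, and with normexp it was 5.50 (adjusted p = 0.00195). Its dimmer probe, above background on none of the WT arrays, was also called higher (adjusted p = 0.00083, limma), with a bound of 312-fold. The bound sets the SCC mean against the lowest signal well above background on each WT array, or the probe's own signal if higher. That lowest signal is not a detection limit, so the bound is not a sure minimum, and it was set on the processed signal only.

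Sbsn (suprabasin) was the exception among the 9 genes. It read 10.84, 10.59, 10.46, 10.88 and 10.84 on the WT arrays and 11.08, 10.27, 11.35, 11.71 and 11.26 on the SCC arrays. SCC replicate 2 was below all WT arrays, and the other 4 SCC arrays were just above them. Sbsn differed by 0.41 ± 0.24 (SE, adjusted p = 0.178, exact permutation p = 0.143). Without SCC replicate 2 the difference was 0.63 ± 0.15 with an adjusted p of 0.00554, which is 1.54-fold and so not called. Its dimmer probe gave 0.39 (adjusted p = 0.383). Sbsn was 1 of 6 genes among the 9 whose probe was well above background on all 10 arrays, the others being Lor, Tgm1, Evpl, Ppl and Cnfn.

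**Figure D2:**
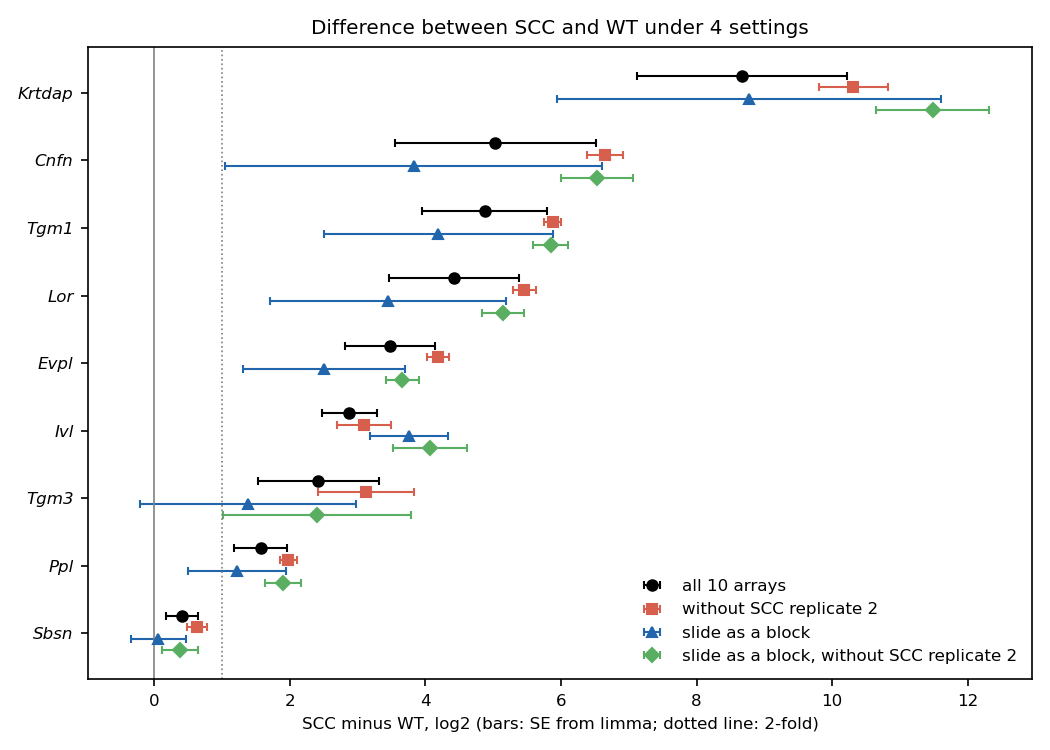
Difference between SCC and WT (log2, x axis) for the 9 genes, with the SE from limma as bars, for all 10 arrays, without SCC replicate 2, with slide as a block, and with both. The dotted line marks 2-fold. Leaving out SCC replicate 2 raised every estimate and, for Lor, Tgm1, Evpl, Ppl, Cnfn and Krtdap, shortened the bars to between 0.13 and 0.51, whereas slide as a block lengthened them to between 0.72 and 2.83.

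Slide and group overlap in part, and the second slide alone holds both. With slide as a block, 1 of the 9 genes was called, against 5.24% of all tested genes called higher: Ivl, at 3.76 (adjusted p = 0.0103). The other 8 differences in that fit were positive, from 0.06 for Sbsn to 8.78 for Krtdap (adjusted p = 0.0819), with 3.45 for Lor, 4.19 for Tgm1, 1.38 for Tgm3, 2.50 for Evpl and 3.82 for Cnfn, and they rest on SCC replicates 1 to 3 against WT replicate 5. Without SCC replicate 2, 8 of the 9 genes were called higher, against 13.1% of all tested genes. With slide as a block and that array left out, 7 of the 9 were called, against 12.1% of all tested genes called higher, with Krtdap at 11.48 and Tgm1 at 5.85 (adjusted p = 0.000311 and 6.71e-05) and with Tgm3 and Sbsn not called (adjusted p = 0.235 and 0.335).

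The 9 genes varied more among tumours than most genes did. Their median SD over the 5 SCC arrays was 2.10, against 0.309 over all tested genes, and without SCC replicate 2 it was 0.267 against 0.180. Over the WT arrays it was 0.293 against 0.144. SCC replicate 2 was below the mean of the other SCC arrays by 1.08 to 1.10 for Sbsn and Ivl, by 2.06 for Ppl, by 3.51 and 3.56 for Tgm3 and Evpl, by 5.03 and 5.22 for Tgm1 and Lor, and by 8.09 and 8.19 for Cnfn and Krtdap. The mean z-score of the 9 genes was -0.68 on SCC replicate 2, inside the range of the WT arrays, -0.89 to -0.62, and 0.88 to 1.38 on the other SCC arrays. Among the 1963 genes called higher without SCC replicate 2 whose other 4 SCC arrays lay above all WT arrays, that array was at or below the highest WT array for 27.5%. For the cornified envelope genes this held for 3 of 8 (Tgm3, Ppl and Cnfn).

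**Figure D3:**
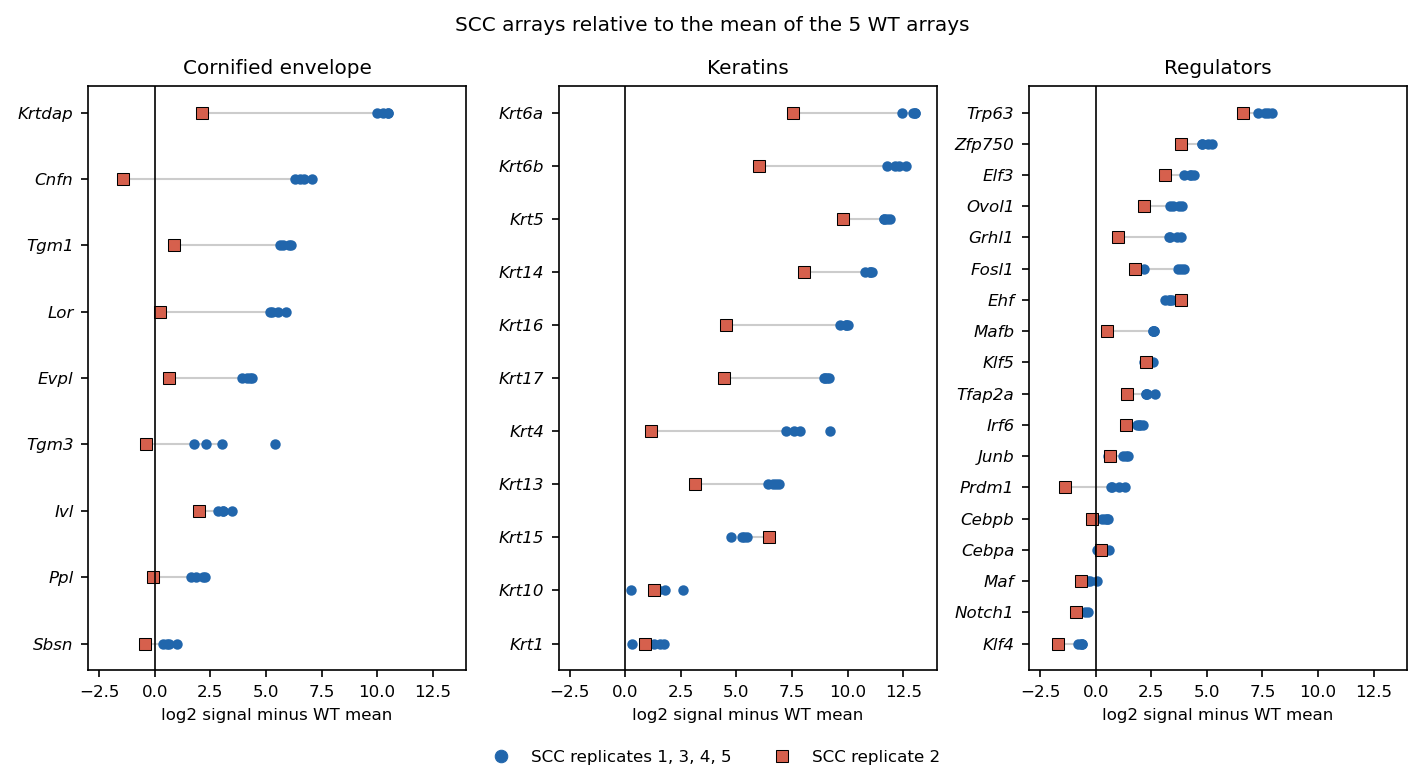
Log2 signal of each SCC array minus the mean of the 5 WT arrays, for the 9 cornified envelope genes (left) and for the tested keratins (middle) and regulators (right) from fixed lists, with SCC replicate 2 as squares and the other 4 SCC arrays as circles. On SCC replicate 2 most envelope genes lie near 0. Keratins drop as well, by a median of 4.57 among those higher on the other 4 SCC arrays, with Krt4 at 1.16 and Krt5 at 9.79 above the WT mean.

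Most keratins and regulators were also below the other tumours on SCC replicate 2, but above the WT arrays. Among the genes higher on the other 4 SCC arrays, the median drop on SCC replicate 2 was 4.57 for keratins, 4.29 for the cornified envelope genes and 1.07 for regulators, beside 1.15 over all such genes. Krt4, a keratin of stratified mucosa, was 5.14 there, whereas the other SCC arrays read 11.19 to 13.19 and the WT arrays 3.52 to 4.57. Trp63, which encodes the regulator p63 of squamous lineages, was 12.13 on SCC replicate 2 and 12.82 to 13.45 on the other SCC arrays, against 4.97 to 6.0 on the WT arrays. Krt5, the basal layer keratin, was 15.60 there and 17.45 to 17.70 on the others, against 5.29 to 6.63. Krt15, another basal keratin, was highest on SCC replicate 2 among the SCC arrays, at 12.26, and so was Ehf, an epithelial ETS factor, at 12.15. Krt4, Krt15 and Ehf are named after their values were seen. All 11 tested keratins and 13 of 18 tested regulators were higher on SCC replicate 2 than on every WT array. The same was so for 5 of the 9 cornified envelope genes, 10 of 28 other envelope precursors and 2 of 13 proteases, inhibitors and barrier lipid enzymes, and for 35.4% of all tested genes.

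Markers of other cells moved with that array. The summed signal (log2) of 4 endothelial genes was 15.2 on SCC replicate 2, 13.9 to 14.5 on the other SCC arrays and 16.7 to 17.0 on the WT arrays. All 4 were called lower in SCC (3 called with slide as a block, 4 without SCC replicate 2 in that fit). That of 3 club cell genes was 19.3 on SCC replicate 2, 17.2 to 18.7 on the other SCC arrays and 19.3 to 19.7 on the WT arrays, with 2 of 3 called lower (0 with slide as a block, 2 without SCC replicate 2 in that fit). Of 5 alveolar type 2 genes 0 were called, and 3 of them, Sftpa1, Sftpb and Lamp3, had adjusted p-values below 0.05 (limma) with differences of -0.74, -0.86 and -0.81, short of 2-fold. Without SCC replicate 2 the difference of Sftpb was -1.05 (adjusted p = 0.00015), and it was called lower in that fit and with slide as a block added. Sftpc was at the highest value of the normalised scale on 7 arrays, so it could show no difference between them. The sum of the other 4 was 17.4 on SCC replicate 2, 16.9 to 17.1 on the other SCC arrays and 17.7 to 17.9 on the WT arrays. Neutrophil genes went the other way. The sum of 4 of them was 13.9 on SCC replicate 2, 16.6 to 16.8 on the other SCC arrays and 14.6 to 15.5 on the WT arrays, with 3 of 4 called higher (0 with slide as a block, 4 without SCC replicate 2 in that fit). Of 5 macrophage genes, 1 was called higher and 1 lower (0 called with slide as a block, 3 without SCC replicate 2 in that fit), with sums of 15.0 on SCC replicate 2, 15.7 to 16.0 on the other SCC arrays and 15.0 to 15.7 on the WT arrays. None of these listed genes was below background on all arrays, and their part in the results above was not tested.

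Of 5 basal squamous markers, 4 were called higher, with sums of 16.5 on SCC replicate 2, 18.4 to 18.7 on the other SCC arrays and 13.2 to 13.7 on the WT arrays. The markers were chosen with earlier results of these data known, so they are no independent check of the squamous label. Of 4 tested skeletal muscle genes, 1 was called lower (0 with slide as a block). Of 7 hair follicle and nail genes 1 was tested, Krt84, which was called higher at 2.47 but not with slide as a block (adjusted p = 0.11).

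Other genes of the pathway were taken from fixed lists. Of 34 further envelope precursors, 28 were tested. Of these, 22 were called higher and 0 lower (0 also at an unadjusted p below 0.05), against 11.6% of all tested genes called higher. Their median difference was 4.43, or 3.69 when the 13 genes not above background on any WT array are set at their bound. These 13 were tested because of the SCC arrays alone, so a call lower was hardly open to them. Sprr1a, a small proline-rich cross-bridging protein, was 5.91 to 6.14 on the WT arrays, 15.16 to 15.75 on 4 SCC arrays and 9.85 on SCC replicate 2, a difference of 8.31 ± 1.01 (adjusted p = 0.000144). Serpinb2, a serine protease inhibitor that is also cross-linked into the envelope, was 4.72 ± 1.11 higher (adjusted p = 0.00628, and 0.216 with slide as a block), but at 5.86 on SCC replicate 2 it lay within the WT range of 5.32 to 6.98. Scel (sciellin), by contrast, differed by -0.55 (adjusted p = 0.232), with 11.08 to 11.52 on the WT arrays and 9.44 on SCC replicate 2. The others tested and not called were Sprr4, Lce1g, Lce1l, Lce1m and S100a10, and Flg2, Hrnr and Tchhl1 were too dim to test. Of the 22 genes called without SCC replicate 2, 13 were at or below the highest WT array on SCC replicate 2. Slide as a block left 4 of the 28 called, and 21 with SCC replicate 2 left out of that fit, against 5.24% and 12.1% of all tested genes called higher. Sprr2 and Lce genes have close copies, so their probes may read more than 1 gene.

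Of 16 proteases, inhibitors and barrier lipid enzymes, 13 were tested. Of these, 11 were called higher and 0 lower (12 higher without SCC replicate 2), against 11.6% of all tested genes called higher. The median difference was 2.37, or 2.09 with 2 genes at their bound, which were tested because of the SCC arrays alone. Asprv1, the retroviral-like protease that trims profilaggrin, was 4.10 ± 1.16 higher (adjusted p = 0.0152), and Cdsn, corneodesmosin of the modified desmosomes of cornified cells, 3.47 ± 0.87 higher (adjusted p = 0.00861). Neither was called with slide as a block (adjusted p = 0.331 and 0.282, limma). In that fit 2 of the 13 were called, or 11 without SCC replicate 2, against 5.24% and 12.1% of all tested genes called higher. On SCC replicate 2 Asprv1 and Cdsn read 5.25 and 5.05, below all WT arrays. Casp14, a caspase of terminal keratinocyte differentiation, was above background on none of the WT arrays. It was called higher (adjusted p = 0.00731, limma), with a bound of 2.45-fold on the processed signal. That bound does not carry over to normexp, where the difference was 0.61 and under 2-fold (adjusted p = 0.0038), and with slide as a block Casp14 was not called (adjusted p = 0.474).

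Among 7 other plakins and junctional scaffolds, all tested, 3 were called higher and 2 lower, against 11.6% and 13.4% of all tested genes. Pkp1, named to account for the count, was above background on none of the WT arrays. It was called higher (adjusted p = 2.07e-06, limma), also with slide as a block (adjusted p = 0.00346). Its probe read 2.23 to 2.89 on the WT arrays and 12.11 on SCC replicate 2. Dsp (desmoplakin, the desmosomal plakin) was 3.07 ± 0.28 higher (adjusted p = 3e-05) and Eppk1 (epiplakin) 1.42 ± 0.30 higher (adjusted p = 0.00374). Macf1, which links actin and microtubules, was lower by 1.31 ± 0.11 (adjusted p = 1.47e-05), and the brightest probe of Dst (dystonin, the hemidesmosomal plakin in its epithelial form) by 1.23 ± 0.15 (adjusted p = 0.000128). The probes of Dst disagreed, and their mean was higher in SCC by 2.18 (adjusted p = 1.43e-06). Eppk1 was not called with slide as a block (adjusted p = 0.218), nor without SCC replicate 2 in that fit (adjusted p = 0.0697). Evpl, Ppl and Dsp were called higher and Macf1 lower.

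Of 18 tested regulators, 12 were called higher and 0 lower by limma (2 lower at an unadjusted p below 0.05), against 11.6% of all tested genes called higher. Their median difference was 2.18. Trp63 was 7.44 ± 0.27 higher (adjusted p = 2.13e-07) and Zfp750, a zinc finger factor of terminal epidermal differentiation, 4.73 ± 0.36 higher (adjusted p = 1.11e-05). Klf4, a barrier-promoting factor, differed by -0.88 ± 0.22 (adjusted p = 0.00773), short of 2-fold, with 15.33 to 15.93 on the WT arrays, 14.93 to 15.10 on 4 SCC arrays and 14.01 on SCC replicate 2. Of the 18 regulators, 9 were called with slide as a block, against 5.24% of all tested genes called higher in that fit. Grhl3 had no paired probe. All 11 tested keratins were called higher, and 8 with slide as a block, against 11.6% and 5.24% of all tested genes called higher. Krt5 was 11.35 ± 0.41 higher and Krt14, its basal partner, 10.40 ± 0.55 higher (adjusted p = 2.14e-07 and 1.79e-06). The suprabasal pair of the epidermis, Krt1 and Krt10, differed by 1.16 ± 0.34 and 1.48 ± 0.39 (adjusted p = 0.0187 and 0.0112), with Krt1 at 4.31 to 5.64 on the WT arrays and 5.23 to 6.65 on the SCC arrays and so overlapping between groups. Neither was called with slide as a block (adjusted p = 0.561 and 0.46), and with normexp both were under 2-fold (0.38 and 0.44) and so not called.

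Ivl, Lor and Flg lie in the epidermal differentiation complex, a cluster of envelope genes on chromosome 3. From Lor to Tchhl1 the RefSeq annotation holds 51 protein-coding genes, with Lor first, Ivl at place 18 and Flg at place 47. A probe was paired with 39 of them, 32 were tested, and 27 were called higher and 0 lower, against 11.6% of all tested genes called higher. The median difference was 4.67, or 3.92 with the 15 genes not above background on any WT array at their bound. Those 15 were tested because of the SCC arrays alone, so a call lower was hardly open to them. Besides Ivl and Lor, 25 of 30 were called. Slide as a block left 3 of the 32 called, and 26 with SCC replicate 2 left out of that fit. Of all tested genes, 5.24% and 12.1% were called higher in these fits. The 5 not called were Sprr2a1, Sprr4, Lce1g, Lce1l and Lce1m, named to account for the count. Of the 27 called higher without SCC replicate 2, 14 were at or below the highest WT array on it. Ivl was among the genes that stayed above it.

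**Figure D4:**
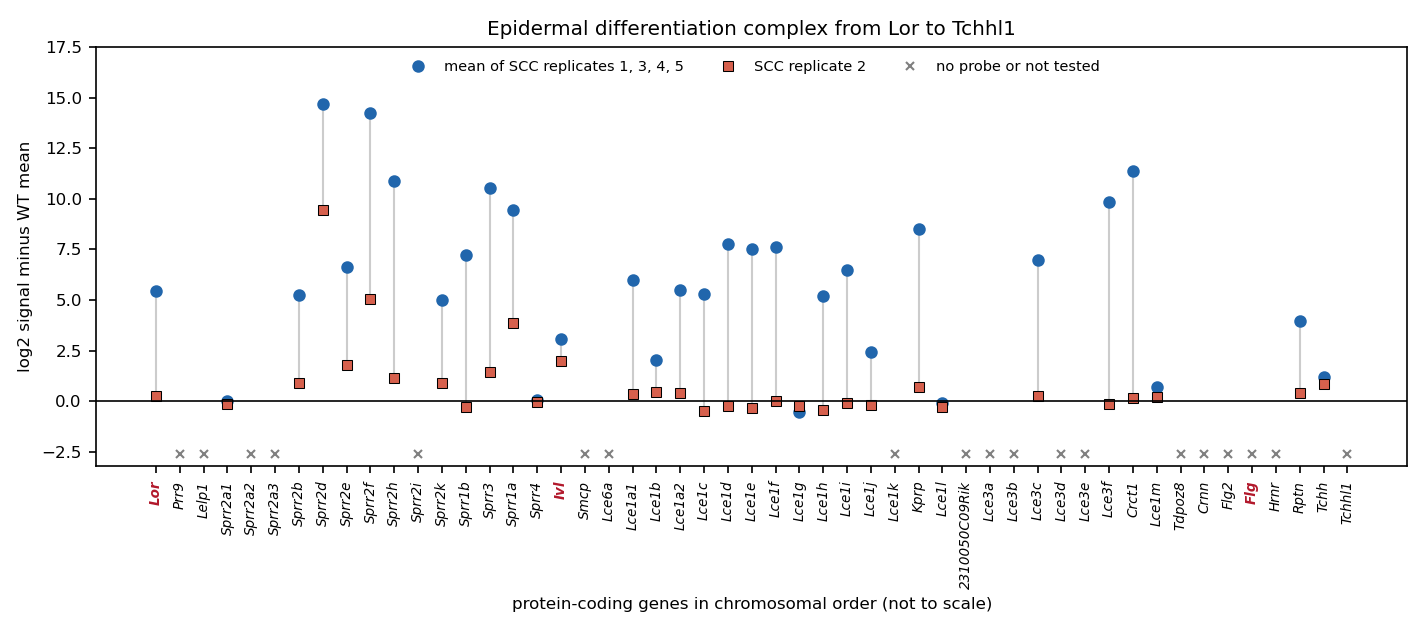
Log2 signal minus the WT mean for the 51 protein-coding genes from Lor to Tchhl1 in chromosomal order (x axis, not to scale), for the mean of SCC replicates 1, 3, 4 and 5 (circles) and for SCC replicate 2 (squares). Crosses mark genes with no probe or not tested, and Lor, Ivl and Flg are in red. Values of genes below background on the WT arrays are fitted levels and not bounds. The circles lie above 0 for 27 called genes spread along the cluster, and most squares lie closer to 0.

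The genes whose pattern over the 10 arrays was most like the mean z-score of the 9 genes were Ero1a, Dennd6b, Smpdl3b, Sprr2g and Dcaf12, with r of 0.993 to 0.994 among 14109 genes well above background on all arrays. Ero1a, which drives disulphide bond formation in the endoplasmic reticulum, was 9.11 to 9.29 on the WT arrays, 11.14 to 11.77 on 4 SCC arrays and 9.44 on SCC replicate 2. Smpdl3b, a phosphodiesterase of the sphingomyelinase family, was 7.73 to 8.24 on the WT arrays, 10.89 to 11.52 on 4 SCC arrays and 7.83 on SCC replicate 2. With 4 high and 6 low arrays, such an r is a description only.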

How the data were processed

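Gene expression was measured in 5 WT lungs and 5 SCCs, grouped and numbered by sample title. Per the file headers the authors read single-colour Agilent whole mouse genome arrays (design build mm9) with Feature Extraction 12. The deposited scanner files give a background-subtracted intensity per spot, not normalized between arrays. The deposited matrix of log2 values, which the authors quantile-normalized, matched the scanner values at r of at least 0.9999 and served as an alternative.

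Spots flagged as outliers and control spots were left out, the spots of a probe averaged on the log2 scale, and the 41174 probes quantile-normalized. A probe was tested if well above background on at least 4 of 5 arrays of a group. Groups were compared by the moderated test of limma (version 3.58.1, under R 4.3.3), two-sided and without covariates, with Benjamini-Hochberg adjustment over 30374 probes, and single genes also with an exact permutation test. The methods' test was a one-way analysis of variance, run as an alternative and called the methods' t-test. Quantile normalization forces equal distributions on all arrays, so levels are relative. The background correction alternative (normexp, offset 50) used the median spot signal, since the files hold no mean spot signal. Array number limits the precision.

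Accessions were paired with symbols through a RefSeq gene table (GRCm38.p6), which named 68.5% of probes. That build differs from the design's, so the coordinates given are of promoter windows from the RefSeq table. Protein sequences were not used here. The 10 genes and all lists were chosen with earlier results of these data known, and some squamous genes were listed by the study from these samples. Named genes were the 9 measured genes, for each other list the top 2 called genes in each direction, by size of difference, among those well above background on all 10 arrays, and Trp63, Klf4, Grhl3, Casp14, Scel, Dsp, Krt1, Krt10 and Krt5. Simulated data with 200 of 30374 probes changed by 2 log2 units gave 151 recovered (75.5%) and 5 false calls. The simulated noise was independent between arrays, with the same SD in both groups. The 9 genes had a median SD of 2.10 in SCC and 0.293 in WT, so these rates do not describe them. Same-numbered samples did not deviate together (correlations of -0.10 to 0.01), so the numbers do not pair them.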

Additional observations from a re-analysis of the deposited data

Results flagged for a closer look

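In 17 of 54 groups of 5 arrays, the WT and SCC groups of the 9 genes and of 18 other named genes, the lowest or highest array was separated from the rest by more than 0.71 of the group's range, the 95% critical value for 5 samples (chance gives about 1 in 20 groups). Of the 17 gaps, 15 were low values on SCC replicate 2. The share of the range taken by the gap was 0.869 for Lor, 0.908 for Tgm1, 0.875 for Evpl, 0.734 for Ppl, 0.914 for Cnfn and 0.940 for Krtdap. It was 0.839 for Klf4, 0.749 for Casp14, 0.823 for Dsp, 0.879 for Krt5, 0.894 for Krt14, 0.899 for Sprr1a, 0.890 for Serpinb2, 0.838 for Asprv1 and 0.887 for Cdsn. The other gaps were high values, 0.815 for Dst on SCC replicate 2 and 0.729 for Krt14 on WT replicate 4. The 15 low gaps come from 1 array and are not independent of each other. Dsp and Krt5 stayed far above the WT arrays on SCC replicate 2, at 14.41 and 15.60, whereas Cnfn and Ppl, at 7.35 and 12.45, were below all of them. Ivl, Tgm3 and Sbsn had SCC replicate 2 as their lowest SCC array without passing the critical value.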

How the results depend on the processing

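The number of called probes was 6954 with all arrays, and as separate totals it was 3969 with normexp, 2989 with slide as a fixed block, 0 within the second slide (by limma, with 5835 at an unadjusted p below 0.05) and 14878 by adjusted p alone. Of the 9 cornified envelope genes, 8 were called with all arrays, 5 when a probe had to be well above background on all arrays, 1 with slide as a fixed block and 0 within the second slide (1 at an unadjusted p below 0.05). For the 88 other pathway genes with a probe the count was 64, and 38, 27 and 0 in the same order (33 at an unadjusted p below 0.05). The stricter detection filter tests fewer genes, and the second slide holds 1 WT array. Leaving out 1 array at a time gave 6385 to 8135 probes, 7 to 8 envelope genes and 62 to 65 pathway genes. With the replicate number as a block, 6571 probes, 8 envelope genes and 62 pathway genes were called, and the numbers do not pair the samples. With slide as a block and without SCC replicate 2, a setting chosen after seeing the data, the counts were 6190, 7 and 60. No difference of the 9 genes or of the 18 other named genes turned its sign under any setting run, except Dst, which was 2.18 with the mean of all its probes. Array quality weights gave 6.35 for Cnfn, 9.91 for Krtdap, 5.33 for Lor, 5.73 for Tgm1, 3.17 for Tgm3 and 4.11 for Evpl. Normexp gave 9.76 for Krt5, 9.13 for Krt14, 5.48 for Trp63, 3.70 for Zfp750, 6.73 for Sprr1a, 3.42 for Serpinb2, 3.18 for Asprv1 and 2.20 for Cdsn, and under 2-fold for Casp14 (0.61), Eppk1 (0.55), Krt1 (0.38) and Krt10 (0.44), and the mean of all probes gave 5.58 for Trp63. Tgm3 kept an adjusted p below 0.05 under 9 of 23 settings, with differences of 1.06 to 3.58, and Sbsn had an adjusted p below 0.05 under 3 of 24. The methods' t-test called 7 of the 9 after Benjamini-Hochberg adjustment and 6 at p below 0.01 before adjustment and 2-fold, the threshold heading the study's gene list. Scaling to the 75th percentile moved the median difference of all probes from -0.09 to 0.03 and the share of calls that were higher from 43.3% to 53.2%. The cause of these changes was not tested. Ivl, Tgm3 and Krtdap were well above background on 3, 2 and 1 of the 5 WT arrays, which limits the precision of their differences.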
